A study of Mus musculus with 6 samples.

Results

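The 7 genes described here encode cytokines, receptors and adhesion molecules that stromal cells of lymphoid tissue use to hold and feed lymphocytes: Tnfsf13b, Il7, Vcam1, Icam1, Ltbr, Tnfrsf1a and Tnfrsf1b. They were picked by name out of 19069 genes listed on at least 1 plate, with earlier results of these data known. Their levels were read in single cells sorted from mouse colon tumors, in 7 classes of wells gated by marker genes, with most weight on 85 fibroblasts that carried Cxcl13 transcripts among 508 fibroblasts.

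The study sorted tumor cells that lacked EPCAM, CD45 and CD31 into 384-well plates, 1 cell per well, and sequenced them by SORT-seq, which counts molecules at the 3′ end of transcripts. The mice carried floxed Zeb1, and a Col6a1-Cre transgene removed the gene in fibroblasts (FibΔZeb1), while littermates without the Cre served as controls (FibCtrl). Per the methods, tumors in both genotypes followed azoxymethane and dextran sulfate sodium (AOM/DSS), a carcinogen followed by colitis, although the labels name no treatment. Plates 1, 3 and 4 held FibCtrl cells and plates 2, 5 and 6 held FibΔZeb1 cells. The study worked with 3 mice per genotype, but the labels do not say which mouse filled which plate, so the spread between plates is taken here as the spread between samples. The Cre is constitutive and acts under Col6a1 sequences in fibroblasts. Animal age was not given in the sources used here.

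Fibroblastic cells of lymph nodes, of Peyer's patches and of ectopic lymphoid aggregates are known to respond to lymphotoxin and tumor necrosis factor (TNF) made by immune cells. The lymphotoxin beta receptor (Ltbr) and the TNF receptors (Tnfrsf1a, Tnfrsf1b) carry those signals to NF-kB, and Cxcl13, Tnfsf13b, Vcam1 and Icam1 are well-known targets. Tnfsf13b, also called BAFF, keeps B cells alive, Il7 keeps naive T cells and innate lymphoid cells alive, and Vcam1 and Icam1 are the surface proteins to which the integrins of leukocytes bind.

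On the mouse genome (GRCm38) the genes lie on 5 chromosomes. Tnfsf13b spans chr8:10006467-10039072 on the plus strand, Il7 chr3:7569994-7613760 and Vcam1 chr3:116109949-116129688 on the minus strand, and Icam1 chr9:21015985-21028817 on the plus strand. Tnfrsf1b lies on the minus strand at chr4:145213463-145246870. Ltbr (chr6:125306571-125313885, minus strand) and Tnfrsf1a (chr6:125349362-125362484, plus strand) are neighbors, 35476 bases apart. For Tnfsf13b, Il7, Vcam1 and Icam1 an annotated transcript on the opposite strand overlaps the gene, and since the sources used here do not say whether counting used the strand, reads of the pair could not be told apart.

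The upstream sequences of the gene with the sharpest split among fibroblast classes, Tnfsf13b, and of the member with such letters, Icam1, are given with letters of NF-kB sites in capitals. The spellings searched were GGGNNTTCC and GGANNTTCC, where N is any base, on both strands in the 250 bases before RefSeq's transcript start. Both sequences are RefSeq's (GRCm38.p6), written 5′ to 3′ on the gene's own strand and ending at the base before the start.
Tnfsf13b, chr8:10006217-10006466, plus strand: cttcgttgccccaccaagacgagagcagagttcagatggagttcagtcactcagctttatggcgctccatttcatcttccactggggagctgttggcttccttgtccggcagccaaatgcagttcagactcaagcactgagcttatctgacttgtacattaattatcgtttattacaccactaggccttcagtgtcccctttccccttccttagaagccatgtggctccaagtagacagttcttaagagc
Icam1, chr9:21015690-21015939, plus strand: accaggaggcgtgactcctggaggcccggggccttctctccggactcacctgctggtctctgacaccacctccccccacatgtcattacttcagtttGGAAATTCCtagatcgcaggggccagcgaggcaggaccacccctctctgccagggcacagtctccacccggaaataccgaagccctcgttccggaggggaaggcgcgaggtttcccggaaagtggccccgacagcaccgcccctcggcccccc
Among 5 members with a RefSeq promoter entry, the letters were found for Icam1 alone, once, as GGAAATTCC, which reads as the second spelling on both strands and ends 144 bases before the start. For Tnfsf13b RefSeq lists another start, whose upstream stretch (chr8:10006383-10006632, not printed here) was searched too and held neither spelling. Either spelling was present in 8.39% of 32841 promoters of the same length. A match of letters is a description of the sequence and says nothing on whether a factor binds there.

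Wells were filtered on genes and mitochondrial transcripts (100 to 6000 genes and less than 10% mitochondrial transcripts per well). The study set these limits for its differential abundance analysis. They kept 1233 wells, 109 to 298 per plate, with a median of 1687 to 11164 transcripts per well. Well numbers repeat on all 6 plates, and 384 of 384 are shared, so a well was identified by plate and number. Plate 6 was sequenced on another flow cell than plates 1 to 5. Levels are given as CPM, the transcripts of a gene per 1000000 transcripts summed over the wells of a class on 1 plate. Zeb1, the deleted gene, was at 103 to 116 CPM in FibCtrl fibroblasts and at 59.6 to 71.9 in FibΔZeb1 fibroblasts, with no overlap, while a 3′ count can still include transcripts of a deleted allele. Of the kept wells, 508 passed the fibroblast gate, which requires at least 5 of 10 fibroblast markers. Cxcl13-positive wells held a median of 10 of 10, a value that the gate itself favors. The gate does not tell cancer-associated from other fibroblasts. Another 439 wells carried neutrophil markers at a median of 767 per 10000 transcripts. Epithelial markers were carried by 82 wells, 45 of them with more than 1 Epcam transcript. Of the neutrophil-like wells, 243 held more than 1 Ptprc transcript. Per the methods, the study's clustering discarded outliers in mitochondrial content instead. It removed cells high in Ptprc or Epcam before fibroblasts were analyzed. Those steps are not in the filter used here, so wells with these transcripts need not be among the study's fibroblasts. On plate 3, neutrophil-like wells made up 84.6% of kept wells and only 17 were fibroblasts.

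Fibroblasts were split into wells with at least 3 Cxcl13 transcripts (Cxcl13-positive, 85 wells), telocyte-like wells (76, by Foxl1, Wnt5a and Bmp genes), iCAF-like wells (154, inflammatory fibroblasts by Pi16, Dpp4, Clec3b and others) and other fibroblasts below the limits for these markers (193). The iCAF limit cuts a continuous range, and 194 fibroblasts lay within 1.5-fold of it. Of the Cxcl13-positive wells, 67 lay below the limits for subtype markers, 12 were within the iCAF limit and 6 within the telocyte limit. They came mostly from plates 1 and 2 (41 and 29 wells), with 8 from plate 5 and 1 to 4 from each other plate, so that comparisons with at least 5 wells per plate rest on plates 1, 2 and 5. The neutrophil markers were at a median of 0.916 per 10000 transcripts in Cxcl13-positive wells and 0.818 in other fibroblasts.

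Tnfsf13b was high in Cxcl13-positive and in other fibroblasts alike, and low in each remaining class. In Cxcl13-positive wells it was at 443 CPM on plate 1, 443 on plate 2 and 374 on plate 5. In other fibroblasts it was at 551, 426 and 410 on the same plates and at 333 and 339 on plates 3 and 4. These 2 classes overlapped, and the mean over plates was 420 ± 39.5 (SD, n = 3) against 412 ± 88.3 (n = 5).
In iCAF-like fibroblasts Tnfsf13b was at 60.9, 164 and 56.0 CPM on plates 1, 2 and 5. In telocyte-like fibroblasts it ranged from 10.7 to 190 over 6 plates, with a mean of 66.6 ± 65.9. No plate of either class reached the lowest plate of the first 2 classes. It was at 44.9 ± 62.3 in pericyte-like wells (n = 3), where plate 4 alone stood at 117, at 48.0 ± 39.1 in neutrophil-like wells (n = 6) and at 15.97 ± 1.38 in epithelial-like wells (n = 4).
In 1 fit over 30 sums of plate and class with plate as a block (edgeR quasi-likelihood test, Benjamini-Hochberg adjustment over 7327 genes), other fibroblasts differed from Cxcl13-positive ones in Tnfsf13b by -0.10 ± 0.46 (SE) on the log2 scale, with an adjusted p of 1.0. Telocyte-like fibroblasts were lower by 2.89 (log2 difference -2.89 ± 0.52, adjusted p 0.00033), and the difference from other fibroblasts was of like size (-2.79, adjusted p 4.3e-05, with 4.75% of all genes lower there). iCAF-like fibroblasts were lower as well (-2.21 ± 0.54, adjusted p 0.016), and this call was lost with DESeq2 (adjusted p 0.077) and without plate 1 (adjusted p 0.38). Pericyte-like (-3.87 ± 0.69), neutrophil-like (-2.77 ± 0.58) and epithelial-like wells (-4.74 ± 0.70) were lower in every alternative run.

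**Figure D1:**
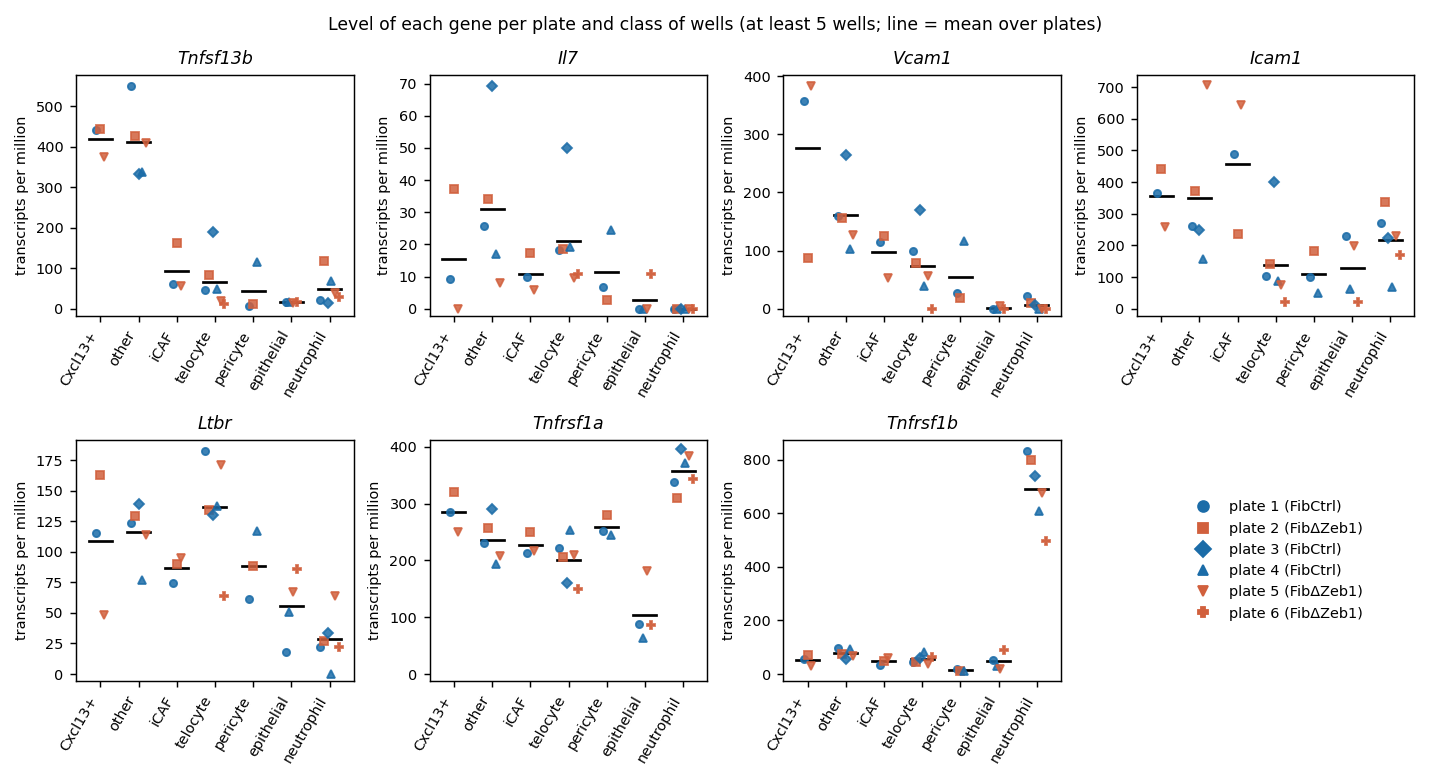
CPM of each gene, 1 panel per gene with its own linear axis, for each plate with at least 5 wells of a class; symbols mark plates, blue FibCtrl and orange FibΔZeb1, and black lines are means over plates. Tnfsf13b stands at 333 or more on every plate of the Cxcl13-positive and other fibroblasts and at 190 or less elsewhere, and Tnfrsf1b at 496 or more in neutrophil-like wells.

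Vcam1, the ligand of the integrin made of Itga4 and Itgb1, followed the same order of fibroblast classes with more spread. In Cxcl13-positive wells it was at 357 CPM on plate 1, 88.0 on plate 2 and 384 on plate 5, so plate 2 lay apart from the other two. In other fibroblasts it was at 159, 156, 264, 103 and 126 on plates 1 to 5, and the classes overlapped. The means were 276 ± 164 (n = 3) and 162 ± 61.6 (n = 5), then 97.5 ± 39.6 in iCAF-like (n = 3), 73.7 ± 58.2 in telocyte-like (n = 6) and 53.9 ± 54.5 in pericyte-like wells (n = 3).
Vcam1 was near absent in 2 gated classes outside the stroma. It was seen in 4 of 439 neutrophil-like wells and 2 of 82 epithelial-like wells, at medians of 1432 and 11462 barcodes per well. Wells that no gate took held 17 transcripts, at up to 154 CPM on a plate. In the fit over classes, Vcam1 was lower than in Cxcl13-positive fibroblasts in telocyte-like (-1.92 ± 0.46, adjusted p 0.0098), pericyte-like (-2.58 ± 0.59, adjusted p 0.0022), neutrophil-like (-4.91 ± 0.77) and epithelial-like wells (-6.44 ± 0.84). Without plate 1 the telocyte-like and pericyte-like calls were lost (adjusted p 0.26 and 0.21), and the telocyte-like call also with at least 10 cells per sum (adjusted p 0.12). For other and iCAF-like fibroblasts the differences of -0.88 ± 0.43 and -1.32 ± 0.47 did not pass (adjusted p 1.0 and 0.18), and the latter passed without plate 2 (-2.07, adjusted p 0.048).

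Icam1, the ligand of the leukocyte integrin made of Itgal and Itgb2, had another order of classes than Tnfsf13b and Vcam1. It was at 366, 440 and 259 CPM in Cxcl13-positive wells on plates 1, 2 and 5, and at 489, 237 and 643 in iCAF-like wells on the same plates. In other fibroblasts it spanned 159 on plate 4 to 705 on plate 5. The 3 classes overlapped, at means of 355 ± 91.2, 456 ± 205 and 350 ± 213.
Neutrophil-like wells held Icam1 at 216 ± 91.6 (n = 6), telocyte-like fibroblasts at 138 ± 135 (n = 6), epithelial-like wells at 128 ± 102 (n = 4) and pericyte-like wells at 111 ± 66.8 (n = 3). No class differed from Cxcl13-positive fibroblasts at an adjusted p under 0.05, with the nearest at -1.36 ± 0.51 in epithelial-like wells (adjusted p 0.051), which passed with at least 10 cells per sum (-2.16, adjusted p 0.0049), without plate 3 (adjusted p 0.035) and without plate 5 (adjusted p 0.022). The pericyte-like difference of -1.42 passed with at least 10 cells per sum and without plate 5 (adjusted p 0.017) and without plate 6 (adjusted p 0.048), and the telocyte-like one of -1.32 without plate 3 (adjusted p 0.026). Against iCAF-like fibroblasts, telocyte-like (-1.76, adjusted p 0.0057) and pericyte-like wells (-1.86, adjusted p 0.015) were lower, where 7.56% and 6.43% of all genes were lower, calls that were lost without plate 1 (adjusted p 0.21 and 0.37). Telocyte-like fibroblasts were also lower than neutrophil-like wells (-1.43, adjusted p 0.0031, with 22.9% of all genes lower). The median of all genes was 0.64 in that contrast, and the CPM of these classes overlapped. Telocyte-like plate 3, at 401, stood above every neutrophil-like plate (at most 336). Against Cxcl13-positive fibroblasts, neutrophil-like wells were at 0.11 ± 0.47 in the fit although their mean CPM was lower, with the median of all genes at -0.66.

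Il7 was the sparsest member, with 5 to 71 transcripts in all kept wells of a plate, most of them in fibroblasts. In Cxcl13-positive wells it was at 9.13 and 37.3 CPM on plates 1 and 2 and at 0 on plate 5. In other fibroblasts it was at 25.7, 34.1, 69.4, 17.1 and 8.14 on plates 1 to 5, and in telocyte-like fibroblasts at 9.51 to 50.0 over 6 plates. The classes of fibroblasts overlapped, with means between 10.9 and 30.9.
No Il7 was seen in 439 neutrophil-like wells, which allows a share of wells with a molecule of up to 0.683%, or a level of 4.06 CPM (3 counts, counting error only). At a median of 1432 barcodes per well this does not limit the share of cells that express the gene. Among epithelial-like wells 1 of 82 held it. Il7 fell under the filter on low counts in the fit over classes, so its order was not tested there.

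Ltbr, the receptor for lymphotoxin and Tnfsf14, was at 115, 163 and 47.9 CPM in Cxcl13-positive wells on plates 1, 2 and 5. It was at 137 ± 41.5 in telocyte-like (n = 6), 116 ± 23.7 in other (n = 5), 109 ± 57.6 in Cxcl13-positive (n = 3) and 86.4 ± 10.7 in iCAF-like fibroblasts (n = 3). These 4 classes overlapped, and no difference among them from the Cxcl13-positive class passed the test. Neutrophil-like wells were lowest at 28.3 ± 20.8 (log2 difference -1.26 ± 0.46, adjusted p 0.022), a call that was lost without plate 1 (adjusted p 0.085) and without plate 2 (adjusted p 0.29). Epithelial-like wells, at 55.4 ± 29.0, did not pass (-0.93 ± 0.43, adjusted p 0.13) and did with at least 10 cells per sum (adjusted p 0.042) and without plate 6 (adjusted p 0.042).

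Tnfrsf1a, the widely made receptor for TNF, was at 285, 320 and 249 CPM in Cxcl13-positive wells on plates 1, 2 and 5, and plate 2 stood above every plate of the other stromal classes while plates 1 and 5 lay among them. Means of those classes ran from 200 ± 38.9 in telocyte-like fibroblasts to 259 ± 18.3 in pericyte-like wells, and stood at 357 ± 32.3 in neutrophil-like and 105 ± 52.7 in epithelial-like wells. Epithelial-like wells were lower than Cxcl13-positive fibroblasts (-1.47 ± 0.36, adjusted p 0.0024, and 0.062 without plate 1). The higher level in neutrophil-like wells (0.81 ± 0.33, adjusted p 0.040) passed by little: it was lost with at least 10 cells per sum (0.38, adjusted p 0.43) and when any single plate but plate 4 was left out, with adjusted p of 0.060 to 0.15. The fit scales the sums, and the median of all genes moved by -0.66 in that contrast. On the 3 plates with both classes, mean CPM was 285 in Cxcl13-positive and 343 in neutrophil-like wells, with Cxcl13-positive wells higher on 1.

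Tnfrsf1b, the inducible TNF receptor of immune cells, set the neutrophil-like wells apart. It was at 833, 800, 737, 608, 677 and 496 CPM there on plates 1 to 6, above every plate of the other 6 gated classes. The 11 wells of plate 2 that no gate took stood at 496 as well, from 9 transcripts. In Cxcl13-positive wells it was at 54.8, 72.0 and 28.7 on plates 1, 2 and 5, and other fibroblasts held 78.2 ± 17.0 (n = 5). The difference between neutrophil-like wells and Cxcl13-positive fibroblasts was 3.96 ± 0.42 on the log2 scale (adjusted p 1.4e-09) and passed in every alternative run, while the median of all genes moved by -0.66 in that contrast. Pericyte-like wells were lowest at 15.0 ± 4.62 (-2.12 ± 0.55, adjusted p 0.0071), and this call was lost without plate 1 (adjusted p 0.072) and without plate 2 (adjusted p 0.35).

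The counts of members called stand beside the share of all genes called in the same contrast. None of 6 tested members differed between other and Cxcl13-positive fibroblasts, where 0.0136% of genes were called. In iCAF-like fibroblasts 1 of 6 was lower (1.6% of all genes), and in telocyte-like fibroblasts 2 of 6 were lower (3% of all genes). In pericyte-like wells 3 of 6 were lower (5.83%), and in epithelial-like wells 3 of 6 (14.3%). In neutrophil-like wells 2 of 6 were higher and 3 lower, where 19.5% of all genes were higher and 32.7% lower.

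**Figure D2:**
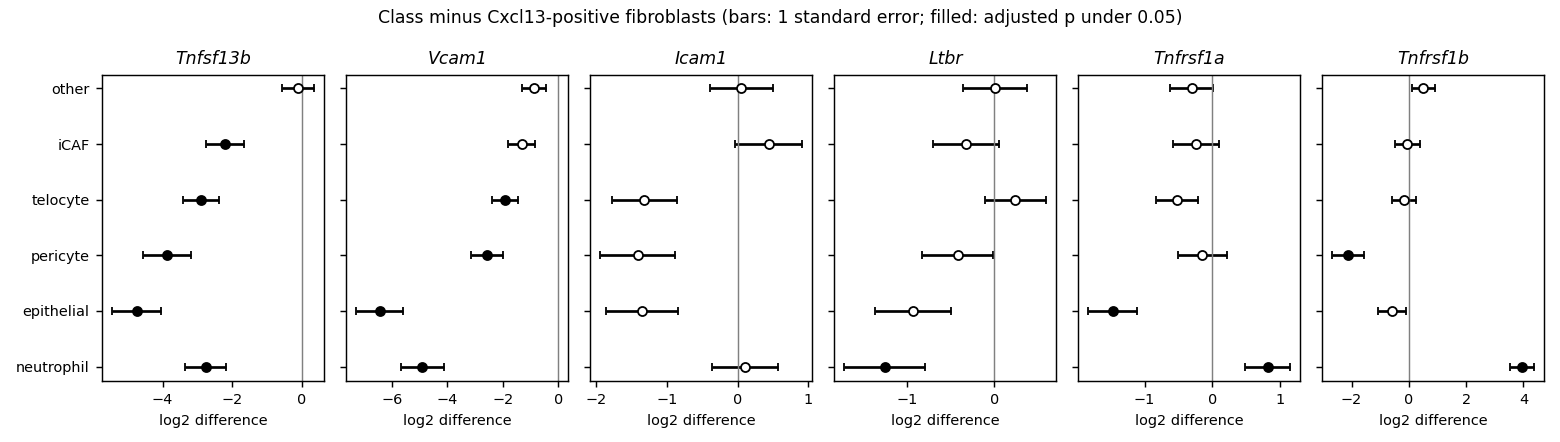
Log2 difference of each class from Cxcl13-positive fibroblasts in the fit over 30 sums, 1 panel per gene (each with its own axis), with bars of 1 standard error; filled points passed an adjusted p of 0.05. Tnfsf13b and Vcam1 lie left of 0 in the telocyte-like, pericyte-like, epithelial-like and neutrophil-like classes, and Tnfrsf1b lies at 3.96 in neutrophil-like wells.

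The share of wells with at least 1 molecule gave the same order for Tnfsf13b when depth was made equal. At full depth 88.2% of 85 Cxcl13-positive wells held Tnfsf13b, against 68.4% of 193 other, 29.9% of 154 iCAF-like and 47.4% of 76 telocyte-like fibroblasts. Thinned to 1000 barcodes per well, the expected shares were 32.3% ± 6.35 (SD over 3 plates), 26.7% ± 10.8 (5 plates), 7.47% ± 3.81 (3 plates) and 6.17% ± 4.35 (6 plates). The iCAF-like and telocyte-like order at full depth goes with a median of 9665 against 15419 barcodes and was not present after thinning. In epithelial-like wells the full-depth share was 10.98% and the thinned share 1.74% ± 0.806, and in neutrophil-like wells 5.47% and 4.71% ± 4.09, with 132 of 439 shallow wells left out of the thinned value.
For Vcam1 the thinned shares were 18.6% ± 9.25 in Cxcl13-positive, 13.1% ± 5.91 in other, 8.38% ± 3.25 in iCAF-like and 5.22% ± 3.85 in telocyte-like fibroblasts. Tnfrsf1b reached 45.8% ± 7.08 in neutrophil-like wells and at most 6.999% elsewhere.

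Within plates, fibroblasts with and without Cxcl13 were then compared directly, with the telocyte-like, iCAF-like and other fibroblasts pooled as Cxcl13-negative. Tnfsf13b was at 443, 443 and 374 CPM in positive wells of plates 1, 2 and 5, and at 196, 335 and 152 in negative wells. It was higher on 3 of 3 plates. The log2 difference was 0.90 ± 0.21, with an adjusted p of 0.18 (edgeR quasi-likelihood test with plate as a block, adjusted over 7791 genes), so it did not pass. On plates 4 and 6, with 2 and 4 positive wells, the positive level was 739 against 161 and 367 against 103, and the single positive well of plate 3 held none.
Vcam1 was higher in positive wells on plates 1 and 5 (357 against 125, and 384 against 73.6) and lower on plate 2 (88.0 against 139). Its log2 difference of 1.05 ± 0.43 did not pass (adjusted p 0.63) and passed without plate 2 (1.85, adjusted p 0.043). On plates 4 and 6 the positive level was 431 against 62.5 and 367 against 75.5.
The other members showed no common direction beyond Tnfrsf1a, which was higher in positive wells on 3 of 3 plates by 0.30 ± 0.18 (adjusted p 0.81). Icam1 (-0.17 ± 0.26), Ltbr (-0.02 ± 0.25), Tnfrsf1b (-0.13 ± 0.27) and Il7 (-0.20 ± 0.49) had adjusted p of 0.95 to 1.0. With 3 pairs of plates, an exact sign-flip permutation test (two-sided) cannot go below 0.25, the value for Tnfsf13b and Tnfrsf1a, and gave 0.5 for Vcam1.
In all, 0 of 7 members passed, where 0.282% of genes did (4 higher and 18 lower, Cxcl13 itself among the 4). At an unadjusted p under 0.05 there were 2 of 7 members, Tnfsf13b and Vcam1, against 7.09% of genes.

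**Figure D3:**
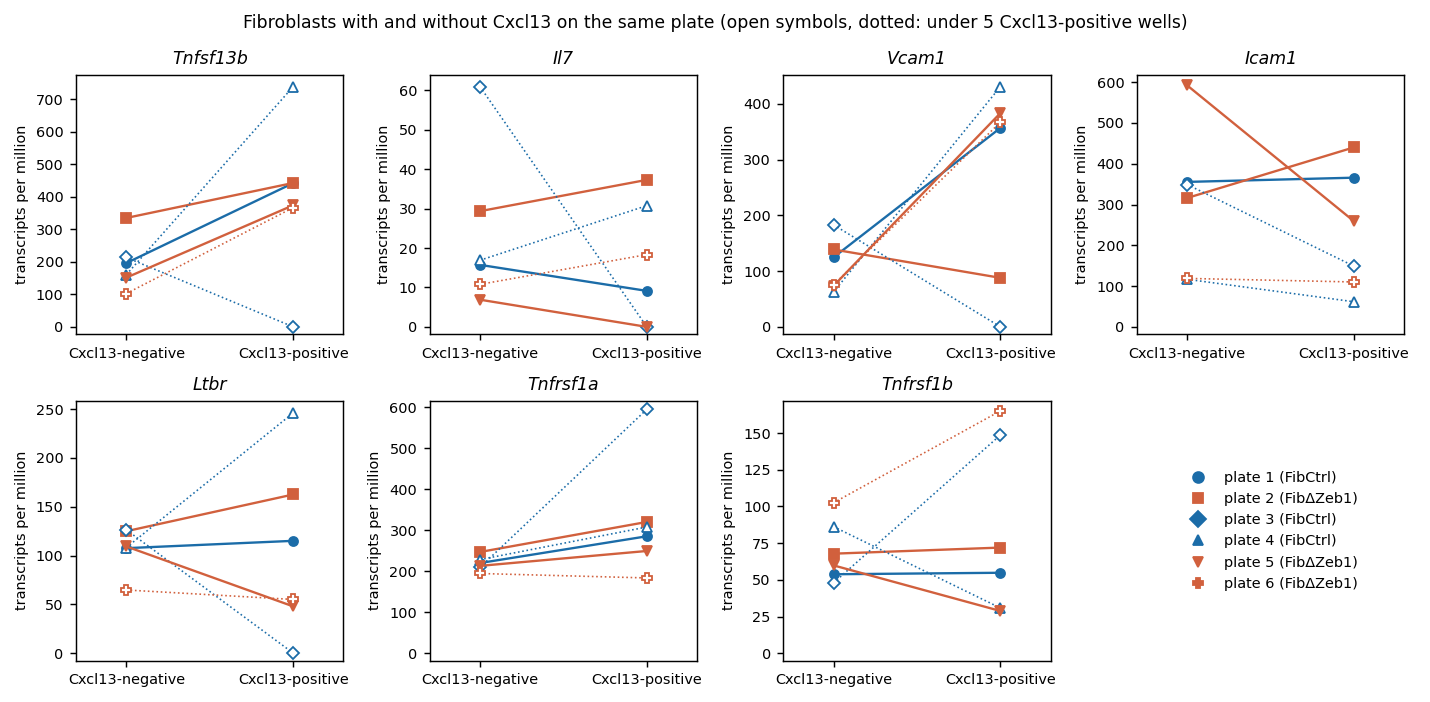
CPM in Cxcl13-negative and Cxcl13-positive fibroblasts of the same plate, joined by a line, 1 panel per gene with its own linear axis; filled symbols and solid lines are plates with at least 5 positive wells (1, 2 and 5), open symbols and dotted lines the others. Tnfsf13b rises along all 3 solid lines and Vcam1 along 2 of them, while plate 2 falls from 139 to 88.0.

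The Tnfsf13b difference changed with the choice of wells and limits. Without telocyte-like and iCAF-like wells in either group, which took 6 and 12 wells from the Cxcl13-positive group too, it was 0.06 (adjusted p 0.97) and that of Vcam1 was 0.38 (adjusted p 0.62). With a limit of 1 Cxcl13 transcript Tnfsf13b differed by 1.07 (adjusted p 0.051) and with a limit of 10 transcripts by 0.56 (adjusted p 0.44), where Vcam1 passed (0.97, adjusted p 0.045). Both passed without a filter on low counts (0.81, adjusted p 0.0066, and 0.97, adjusted p 0.0037), a setting that called 201 genes in place of 22. With at least 2 cells per sum, a choice made after seeing the data that brings in plates 4 and 6, Tnfsf13b passed (1.23, adjusted p 0.025), and with at least 1 cell Vcam1 did (1.32, adjusted p 0.038).
By Cxcl13 content on plate 1, Tnfsf13b was at 150 CPM in 99 fibroblasts without Cxcl13, 349 in 25 with 1 to 2 transcripts, 410 in 13 with 3 to 9 and 457 in 28 with 10 or more. On plate 2 the levels were 329, 389, 477 and 356 over 112, 14, 19 and 10 wells. On plate 5 they were 154, 122, 568 and 260 over 91, 9, 4 and 4 wells. Plate 4 had 141 without Cxcl13 (42 wells), 313 with 1 to 2 transcripts (5 wells) and 739 with 10 or more (2 wells). Plate 6 had 80.4, 148, 220 and 805 over 7, 3, 3 and 1 wells. Plate 3 had 203 without Cxcl13 (13 wells), 276 with 1 to 2 transcripts (3 wells) and 0 with 10 or more (1 well). The level rose with each step of Cxcl13 content on plates 1, 4 and 6 and not on plates 2, 3 and 5.

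The genotypes were compared over all fibroblasts of a plate. Plates differed in their mix of fibroblast classes, with 95 other and 14 iCAF-like wells on plate 2 and 27 and 66 on plate 5. A pooled level therefore joins the mix of classes with the level within them, and the parts were not told apart. Plate 3 held 17 fibroblasts and plate 6 held 14. Tnfsf13b was at 261, 208 and 191 CPM in FibCtrl (plates 1, 3 and 4) and at 353, 175 and 163 in FibΔZeb1 (plates 2, 5 and 6), so the highest and the lowest plates were both FibΔZeb1. Vcam1 was at 186, 178 and 81.7 in FibCtrl and at 130, 107 and 142 in FibΔZeb1. Icam1 was at 358, 343 and 114 against 337, 556 and 117, with 1 low plate in each genotype.
Il7 was at 13.996, 59.3 and 17.6 in FibCtrl against 30.7, 6.16 and 12.5 in FibΔZeb1. Ltbr was at 110, 123 and 115 against 131, 103 and 62.5, Tnfrsf1a at 237, 220 and 232 against 259, 217 and 192, and Tnfrsf1b at 54.1, 50.8 and 83.3 against 68.5, 56.5 and 117. For all 7 members the genotypes overlapped.
The log2 differences (FibΔZeb1 minus FibCtrl) were 0.09 ± 0.34 for Tnfsf13b, -0.35 ± 0.69 for Il7, -0.25 ± 0.34 for Vcam1, 0.36 ± 0.60 for Icam1, -0.14 ± 0.28 for Ltbr, -0.02 ± 0.22 for Tnfrsf1a and 0.28 ± 0.29 for Tnfrsf1b. None of 7 passed in the edgeR quasi-likelihood test, where 0% of 8338 genes did, 128 genes (1.54%) had an unadjusted p under 0.05 and DESeq2 called 1 gene. Exact permutation tests over 3 against 3 plates (two-sided), which cannot go below 0.1, gave 0.5 to 1.0.

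**Figure D4:**
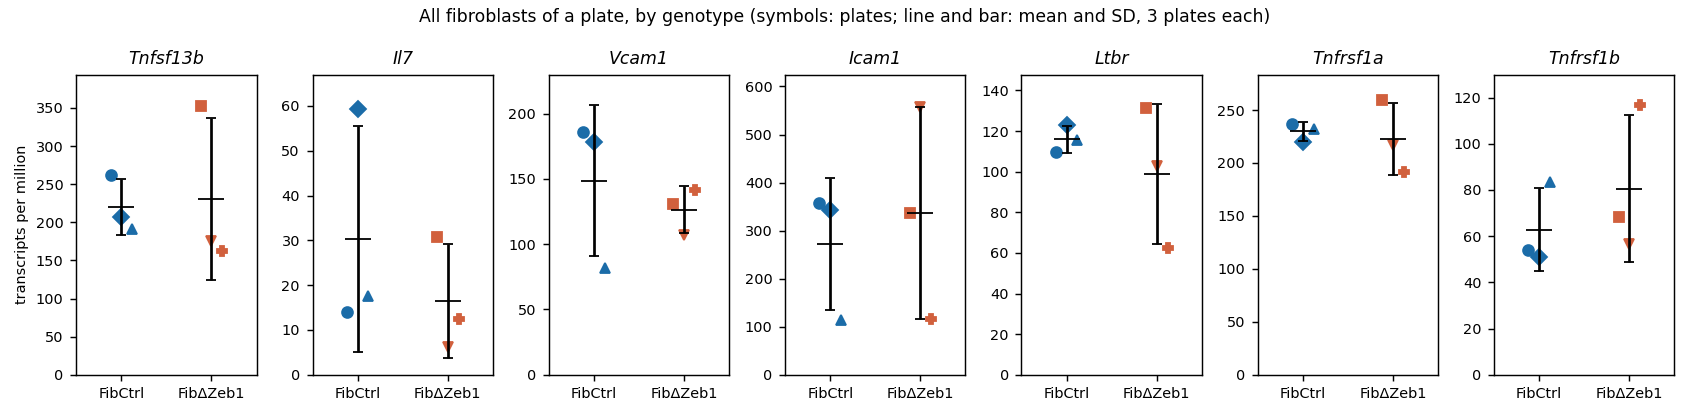
CPM in all fibroblasts of each plate, FibCtrl (blue, plates 1, 3 and 4) and FibΔZeb1 (orange, plates 2, 5 and 6), with the mean and SD over 3 plates in black, 1 panel per gene with its own linear axis starting at 0. The genotypes overlap in all 7 panels.

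With pericyte-like wells added, again none of 7 members passed, where 0% of 8751 genes did (113 or 1.29% at an unadjusted p under 0.05, and 1 with DESeq2). Within Cxcl13-positive fibroblasts only plate 1 stood for FibCtrl, against plates 2 and 5. None of 7 members passed there, where 0.4% of 6756 genes did, and the largest difference by p, Vcam1 at -0.74 ± 0.48, had an adjusted p of 1.0. The lone FibCtrl sum is assumed to vary like the others, so the lack of calls says little about the genotypes. The interaction of class and genotype has the same limit, since the FibCtrl difference comes from plate 1 alone. It called none of 7 members (0% of 7791 genes called, 231 or 2.96% at an unadjusted p under 0.05), with -0.36 ± 0.47 for Tnfsf13b and -0.71 ± 0.79 for Vcam1.

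The partners of the members were found in different classes. The integrin partners of Icam1 and the ligands of Ltbr and the TNF receptors were highest in neutrophil-like wells, although the cells were sorted as CD45-negative. Itgal and Itgb2, whose product binds Icam1, were at 596 ± 97.1 and 805 ± 171 CPM there and at 0 and 3.196 in Cxcl13-positive fibroblasts. Tnf stood at 295 ± 90.6, Ltb, a subunit of the lymphotoxin that binds Ltbr, at 110 ± 57.7, and Tnfsf14 at 78.7 ± 35.3, while Lta was at 0 in every class. Tnf was also seen in epithelial-like wells at 88.6 ± 81.1 and was at or near 0 in fibroblasts.
Itgb1 was present in each class, at 574 ± 82.2 in Cxcl13-positive fibroblasts and 1184 ± 221 in pericyte-like wells, and was lowest in neutrophil-like wells (104 ± 87.1), and Itga4 was highest in pericyte-like wells (212 ± 38.0) and neutrophil-like wells (137 ± 35.7). The receptors of Tnfsf13b were at the level of single transcripts: Tnfrsf13c had 3 in the 7 classes together and Tnfrsf13b had 1, while Tnfrsf17 is not among the genes the tables list. Itgb7, the other partner of Itga4, was at 10.6 ± 12.5 in neutrophil-like wells, and Il7r had 1 transcript. The sort was against CD45 and no class of B or T cells was gated. The low counts of these receptors therefore say nothing about such cells in the tumors.

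Other genes of these pathways were read in the comparison of Cxcl13-positive and Cxcl13-negative fibroblasts, where 0.282% of 7791 genes passed. At that share, a lack of calls in short lists says little about the pathways. None passed among 10 tested of 21 lymphoid stroma factors, 2 tested of 8 ligands of the TNF receptor family, 3 tested of 15 receptors, 18 tested of 22 NF-kB signalling genes and 3 tested of 10 integrins and cytokine receptors. Their median log2 differences were 0.10, 0.25, -0.14, 0.13 and -0.23, beside -0.01 for all genes. Cxcl12, which holds lymphocytes and plasma cells in stromal niches, was nearest at 0.70 ± 0.17 (adjusted p 0.18), a size of difference and p close to those of Tnfsf13b. Tnfrsf11b, the decoy receptor osteoprotegerin, was at -1.45 ± 0.36 (adjusted p 0.21).
Between telocyte-like and Cxcl13-positive fibroblasts, 1 of 12 tested stroma factors (Cxcl12, -1.77) and 1 of 6 tested receptors (Tnfrsf12a, -1.64) were lower. In that contrast 3% of all genes were lower. Between genotypes in all fibroblasts 0% of 8338 genes were called, so no list could hold a called gene.

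Over the 30 sums of plate and class, the genes whose log2 level ran most like each member were taken from 3604 genes with a mean of at least 50 CPM. The sums share plates and depth, so the correlations describe the classes and carry no test. Tnfsf13b ran most like Svep1 (r = 0.88), C4b (0.87) and Serpina3n (0.83), and Vcam1 like Chl1 (0.93), Cxcl12 (0.93) and Serpina3n (0.92). Tnfsf13b and Vcam1 themselves stood at 0.79. Icam1 ran most like Csf1 (0.77), Zfp36 (0.77) and Gbp2 (0.74), and Tnfrsf1b like Grina (0.94), C5ar1 (0.94) and H2-Q10 (0.94). Ltbr ran most like Plod3 (0.87), Col16a1 (0.85) and Slc39a7 (0.85), Tnfrsf1a like Pde4b (0.87), Snx18 (0.84) and Cebpb (0.84), and the sparse Il7 like Ppp1r14a (0.81), Eva1b (0.78) and Rgs10 (0.77). Ltbr and Tnfrsf1b, receptors of the same family, ran opposite to each other at -0.59.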

How the data were processed

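Barcode counts and transcript counts of 6 plates of single cells were used. Barcode tables, as deposited, give raw counts (whole molecular barcodes for each gene in each well). Transcript tables hold estimated counts: the authors' provider had corrected barcodes for repeated use. Reads were mapped to GRCm38 with BWA, and the submitters' processing notes also name Cell Ranger 2.1.1. Spike-ins (7.85% to 18.6% of transcripts per plate) were left out. Wells with 100 to 6000 genes and less than 10% mitochondrial transcripts were gated by marker lists: fibroblasts by at least 5 of 10 markers and 100 marker transcripts per 10000, neutrophil-like wells by 3 of 8 markers and 100 per 10000, and iCAF-like fibroblasts by 50 per 10000. No doublet caller was run. The members, marker lists and pathway lists were chosen with earlier results of these data known. Named pathway genes were those past an adjusted p of 0.05 in the Cxcl13 comparison, of which there were none, and binding partners of the members; Cxcl12, Tnfrsf11b and Tnfrsf12a were named after their values were seen. Sums of estimated counts over plate and class (at least 5 cells) were rounded. The test was the quasi-likelihood test of edgeR 4.0.16 after filterByExpr and TMM scaling, with Benjamini-Hochberg adjustment over the whole table, in R 4.3.3, with DESeq2 1.42.0 as an alternative. Plate was the block wherever classes of the same plate were compared. Levels are CPM of a sum, and counting limits their precision. Exact permutation tests used scipy 1.17.1. The fits were tested on simulated data.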

Additional observations from a re-analysis of the deposited data

Results flagged for a closer look

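In 49 groups of 4 to 6 plates, 1 per member and class, 7 had a highest or lowest plate that lay apart from all others by Dixon's 95% criterion. Chance gives about 1 in 20 when groups are independent and values normal. Several groups here share wells and some hold few transcripts, so the count of 7 cannot be set against that rate. On plate 3, whose telocyte-like class held 6 wells, Icam1 stood at 401 CPM, with the nearest plate at 140, and Il7 at 50.0 (5 transcripts), with the nearest at 19.2. Over all stromal wells of plate 3, Il7 stood at 56.5, with the nearest plate at 23.9. On plate 6, Ltbr was lowest, at 64.7 in Cxcl13-negative fibroblasts (nearest plate 108) and at 75.1 in all stromal wells (nearest plate 104). In epithelial-like wells, Il7 stood at 10.8 on plate 6 and Vcam1 at 4.78 on plate 5, both from 2 transcripts, with the other plates at 0.

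The wells left out for at least 10% mitochondrial transcripts (973 wells) held 2780 transcripts of the 7 members, which no comparison used. Tnfsf13b was at 99.7 CPM there, Icam1 at 124, Tnfrsf1a at 142, Ltbr at 83.1, Tnfrsf1b at 67.4, Vcam1 at 43.2 and Il7 at 6.11.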

How the results depend on the processing

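Between Cxcl13-positive and negative fibroblasts 22 genes passed, and 178 did with a limit of 10 Cxcl13 transcripts, 201 without a filter on low counts, 124 without telocyte-like and iCAF-like wells, 37 with at least 2 cells per sum, 59 with at least 1 cell (these last choices were made after seeing the data) and 8 to 139 with 1 plate left out. Without the replicate block 1 gene passed; the block is the plate, from which both sums come, and sums of the same plate deviated together with r of 0.085, 0.296 and 0.238 on plates 1, 2 and 5. For the comparisons of genotypes no paired analysis was possible, because the labels link no FibCtrl plate to a FibΔZeb1 plate.
In this comparison, differences that missed the threshold turned direction. Icam1 was at 0.19 with a limit of 1 transcript, 0.25 with 10, 0.31 with 1000 CPM and 0.37 without telocyte-like and iCAF-like wells. Ltbr was at 0.55 with 10 transcripts and with 1000 CPM, 0.0352 with at least 1 cell, 0.0859 with at least 2, 0.0114 without the block and 0.14 without telocyte-like and iCAF-like wells. Tnfrsf1b was at 0.0699, 0.15 and 0.0977 with 10 transcripts, 1000 CPM and a mitochondrial limit of 20%. With 1 plate left out Icam1 ranged from -0.52 to 0.20, Il7 from -0.12 to 0.13, Ltbr from -0.28 to 0.19, Tnfrsf1b from -0.27 to 0.00454, Tnfsf13b from 0.73 to 1.20 and Vcam1 from 0.52 to 1.85.
Between classes, with at least 10 cells per sum 2 genes passed in other against Cxcl13-positive fibroblasts, and Tnfsf13b was at 0.0664, Icam1 at -0.18 and Ltbr at -0.27. In neutrophil-like wells Icam1 was at -0.0556 with DESeq2 and -0.40 with at least 10 cells. With 1 plate left out, 961 to 1641 genes passed in epithelial-like, 50 to 251 in iCAF-like, 2659 to 3887 in neutrophil-like, 341 to 918 in pericyte-like, 92 to 339 in telocyte-like and 1 to 2 in other wells. Ranges that crossed 0 were those of Tnfrsf1b in iCAF-like (-0.50 to 0.17) and telocyte-like wells (-0.39 to 0.0651), of Ltbr in pericyte-like (-0.72 to 0.0303), telocyte-like (-0.0505 to 0.57) and other wells (-0.24 to 0.28), of Icam1 in neutrophil-like (-0.13 to 0.26) and other wells (-0.44 to 0.29) and of Tnfsf13b in other wells (-0.19 to 0.0499).
Between genotypes, DESeq2 called 1 gene in fibroblasts and 1 in all stromal wells. In Cxcl13-positive fibroblasts Tnfrsf1b was at -0.0947 with DESeq2, and at least 2 cells per sum gave 0 calls, with Icam1 at 0.15. The difference by genotype had 1 call with at least 2 cells, with Tnfrsf1b at 0.26. Tnfrsf1a in fibroblasts was at 0.0169 with a mitochondrial limit of 20%. With 1 plate left out in fibroblasts Tnfsf13b ranged from -0.35 to 0.30, Il7 from -1.58 to 0.25, Vcam1 from -0.57 to 0.0577, Icam1 from -0.23 to 0.76, Ltbr from -0.37 to 0.0758 and Tnfrsf1a from -0.13 to 0.0973. In all stromal wells Tnfsf13b ranged from -0.37 to 0.22, Icam1 from -0.21 to 0.87, Ltbr from -0.24 to 0.0720 and Tnfrsf1a from -0.10 to 0.0813. The cause of these changes was not tested. In Cxcl13-positive fibroblasts, leaving out plate 1 left no FibCtrl plate and leaving out plate 2 or 5 left no residual degrees of freedom, so these fits gave no value.
Depth limits Il7 most, which few wells held, and the 3 plates with at least 5 Cxcl13-positive wells limit each comparison with that class.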

Other observations

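The 16 wells with more than 6000 genes, which were left out, held Tnfsf13b at 28.8 CPM, Vcam1 at 12.2, Icam1 at 48.1, Ltbr at 102, Tnfrsf1a at 80.1, Tnfrsf1b at 46.2 and Il7 at 8.27. The 82 wells with fewer than 100 genes held 2 transcripts of Icam1 and none of the other members.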
